A study of Mus musculus with 9 samples.

Results

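The 10 genes of bile acid synthesis, conjugation and transport were followed in mouse liver. The members were chosen by name, as the rows of the gene count table whose symbol is Cyp7a1, Cyp8b1, Cyp27a1, Cyp7b1, Acox2, Slc27a5, Baat, Slc10a1, Abcb11 or Slc51b. All 10 of these names were found among the 24411 genes of the table. The table covers 9 livers, 3 in each of 3 groups, from which poly(A) RNA was sequenced. In the group named cont., both copies of Atg7 were floxed and no Cre was present. The Atg7-KO livers had the same floxed copies plus Alb-Cre, a recombinase driven by the albumin promoter that acts in hepatocytes. Liver cells keep Atg7 if that promoter was never active in them or in their precursors. Which cells had lost Atg7 was not measured here. The third group, Atg7-KO;p62-S351A, carried in addition a p62 in which a serine is replaced by alanine (p62S351A) on both copies, and is called S351A below. All mice therefore had floxed Atg7, and p62S351A without loss of Atg7 was not analysed here. For S351A replicates 2 and 3 the genotype entry names another position in p62 than the title, and the titles were followed. The mice were C57BL/6 and 3 months of age by the study's methods. Each library is labelled as a mouse of its own.

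Bile acids are made from cholesterol in hepatocytes. In the neutral route Cyp7a1 sets the pace and Cyp8b1 adds the hydroxyl group that steers the product to cholic acid, while in the acidic route Cyp27a1 and Cyp7b1 hydroxylate oxysterols. Peroxisomes shorten the side chain, Slc27a5 and Baat join the acid to taurine or glycine, Abcb11 (the bile salt export pump) secretes it into bile, and Slc10a1 (NTCP) takes it up again from portal blood. The receptor FXR, encoded by Nr1h4, senses bile acids and lowers their synthesis partly through Nr0b2 (SHP). Atg7 is needed to form autophagosomes. p62 is an autophagy substrate that accumulates without Atg7 and, when phosphorylated on the serine replaced in S351A, binds KEAP1 more tightly, which releases the transcription factor NRF2.

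On the mm10 assembly with GENCODE M21 models, all 10 members are protein-coding. The neutral route genes are Cyp7a1 (chr4:6265612-6275633) and the single-exon Cyp8b1 (chr9:121914356-121916305), and the acidic route genes are Cyp27a1 (chr1:74713574-74737892) and Cyp7b1 (chr3:18071950-18243338). Acox2 is at chr14:8225511-8259353, Slc27a5 at chr7:12988346-12998192 and Baat at chr4:49489422-49506557. The transporters are Slc10a1 (chr12:80953183-80968705), Abcb11 (chr2:69238282-69342616) and Slc51b (chr9:65412714-65422955). Only Cyp27a1 is on the plus strand. Exons of Abcb11 overlap the antisense gene Gm13613 and the pseudogene Gm13614, and exons of Slc51b overlap Rasl12 on the other strand. The strand setting of the counting is not given in the sources used here, so reads in these overlaps could belong to either gene.

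RefSeq promoter windows, from 250 bases before to 50 bases after a transcription start on GRCm38.p6 (the mm10 assembly), were found for 6 members (Cyp8b1, Cyp27a1, Slc10a1, Abcb11, Acox2 and Slc51b). Both strands were searched for the core of the antioxidant response element bound by NRF2 (TGACNNNGC), for the inverted repeat of AGGTCA with 1 base between its arms, bound by FXR, for a single-receptor site of LRH-1 (CAAGGTCA), whose letters can overlap those of the FXR repeat, and for an HNF1 site (GTTAAT and ATTAA with 1 base between). The first was matched in Cyp8b1 and Acox2, and the exact letters of the others were in no member window. A site that differs by 1 letter from those searched was not counted. In the Abcb11 window below, aggccattgacct differs in 1 letter from the FXR repeat. Of 32851 RefSeq promoter windows, 12.4% hold the first motif, 0.00913% the second, 1.56% the third and 0.0609% the last. The 2 windows with a match are shown because they hold it, one in a member called lower (Cyp8b1) and one in a member not called (Acox2), and the window of Abcb11 because it had the smallest adjusted p of the members. Each is on the minus strand and reads 5′ to 3′ along the gene, with the matched letters in capitals.
Cyp8b1, chr9:121916256-121916555: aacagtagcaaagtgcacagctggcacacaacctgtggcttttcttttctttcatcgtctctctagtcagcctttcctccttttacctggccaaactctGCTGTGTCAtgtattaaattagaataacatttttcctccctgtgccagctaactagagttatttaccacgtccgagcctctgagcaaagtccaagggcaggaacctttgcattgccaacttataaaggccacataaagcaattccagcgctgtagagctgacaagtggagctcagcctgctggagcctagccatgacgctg
Acox2, chr14:8258970-8259269: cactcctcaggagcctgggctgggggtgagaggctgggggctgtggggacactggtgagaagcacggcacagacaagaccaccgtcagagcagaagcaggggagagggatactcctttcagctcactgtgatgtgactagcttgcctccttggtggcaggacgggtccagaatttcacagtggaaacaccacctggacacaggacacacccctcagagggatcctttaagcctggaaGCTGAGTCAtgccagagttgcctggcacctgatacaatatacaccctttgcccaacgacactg
Abcb11, chr2:69342567-69342866: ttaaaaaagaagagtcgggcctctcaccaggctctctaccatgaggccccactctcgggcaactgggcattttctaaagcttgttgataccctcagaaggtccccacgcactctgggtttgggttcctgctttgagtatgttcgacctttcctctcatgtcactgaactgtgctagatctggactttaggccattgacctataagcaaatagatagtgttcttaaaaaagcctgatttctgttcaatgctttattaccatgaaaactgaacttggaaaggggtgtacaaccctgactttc
The match in Cyp8b1 (GCTGTGTCA) begins 151 bases before the start and the one in Acox2 (GCTGAGTCA) 13 bases before it, both reading TGACNNNGC on the opposite strand. A second RefSeq start of Acox2 places the same bases 193 bases upstream. These are matches of letters, and binding was not measured.

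Levels are given as CPM, with the counts of the 11199 genes tested as the denominator, scaled between libraries by edgeR's TMM factors. Values of replicates 1, 2 and 3 are listed in that order. A gene was called where edgeR's quasi-likelihood test, fitted on all 9 libraries, gave a Benjamini-Hochberg adjusted p under 0.05 over all 11199 genes and the fold exceeded 1.5. Every adjusted p below is from that test unless another is named. Library totals ran from 713835 to 15426566 counts, and the S351A libraries, at 713835 to 792366, were the shallowest. By Xist and Y-linked genes, 2 of the cont., 1 of the Atg7-KO and 1 of the S351A livers were male, a split the labels do not give. Atg7 itself was at 45.1, 57.8 and 42.4 CPM in cont., at 30.2, 28.0 and 28.4 in Atg7-KO and at 21.8, 24.8 and 22.2 in S351A, lower in each library with Alb-Cre than in any without. With libraries scaled by total library size in place of TMM, this lower level was called in neither group. The log2 fold changes of Atg7 were then -0.20 in Atg7-KO and -0.59 in S351A.

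Of the 9 members that could be tested, 7 were lower in Atg7-KO than in cont. and 0 were higher, beside 18.1% of all tested genes called lower and 19.9% called higher. All 3 Atg7-KO values lay under all cont. values for 8 tested members, Cyp7a1 being the eighth, beside 24.9% of all genes. The 7 called were Cyp8b1, Cyp27a1, Cyp7b1, Slc27a5, Baat, Slc10a1 and Abcb11, with folds of 2.43 to 17.7. Cyp7a1 and Acox2 were not called, and Slc51b was too low to test. The median log2 fold change of the tested members was -1.41, against -0.03 for all genes. The same 7 members were lower in S351A than in cont., where 13.0% of all genes were called lower and 15.6% higher, with a median of -1.48 against -0.03, and in these 7 the groups did not overlap, beside 18.4% of all genes. These comparisons share the cont. libraries. In bulk liver, fewer hepatocytes and less RNA per hepatocyte cannot be told apart.

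**Figure D1:**
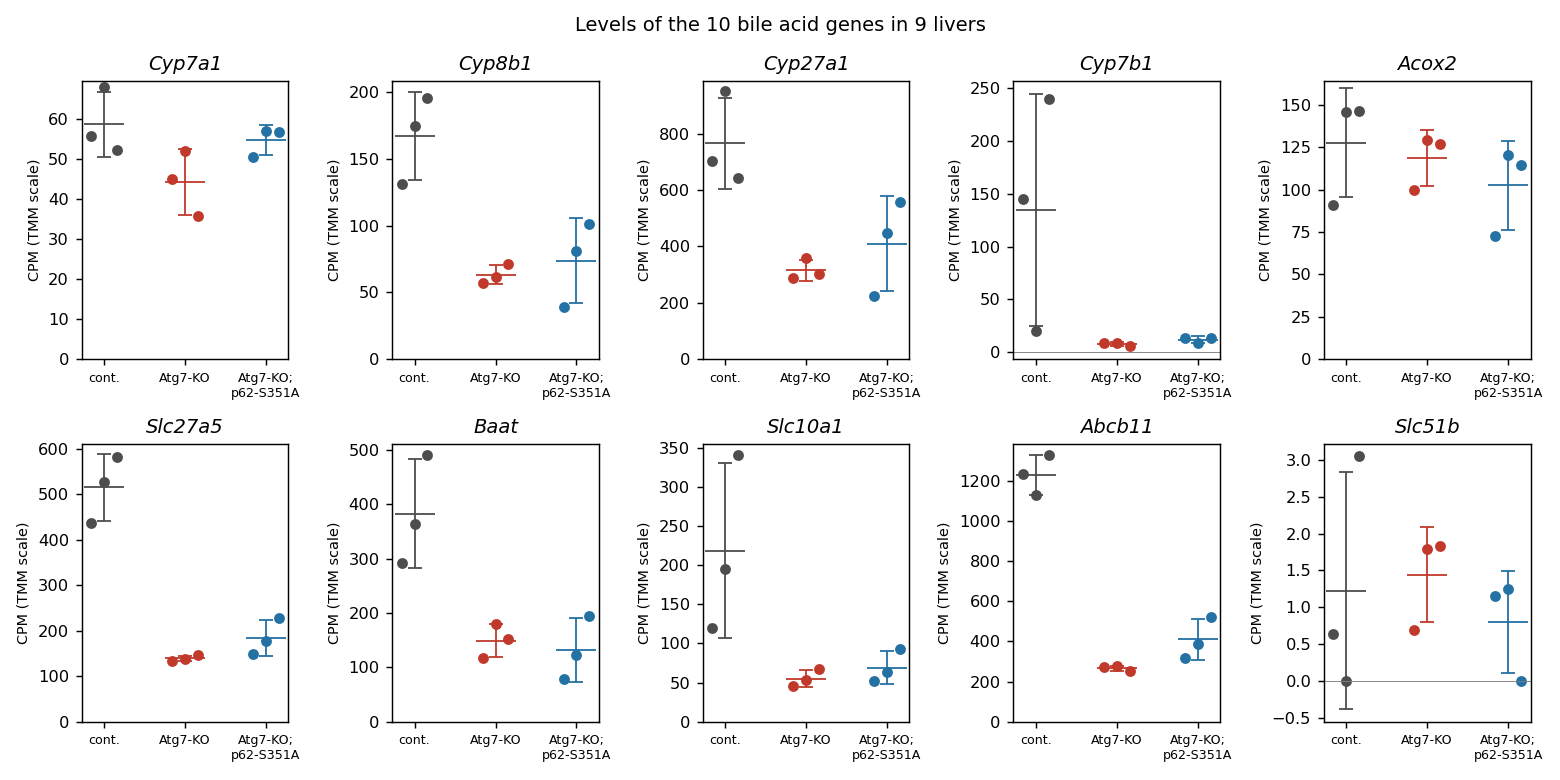
Level of each of the 10 members in CPM on the TMM scale (vertical axes, each starting from 0 except where an SD bar or 0 itself needs more room) in the 3 groups. Points are single livers in the order of replicates 1 to 3, and bars are the mean ± SD (n = 3). In 7 panels every Atg7-KO and S351A point lies below every cont. point, whereas the S351A points of Cyp7a1 and the points of all groups for Acox2 overlap cont., and Slc51b is near 0.

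In the neutral route, Cyp8b1 was lower in both groups and Cyp7a1 was not called in either. Cyp7a1, the rate-limiting cholesterol 7-alpha-hydroxylase, was at 55.9, 68.0 and 52.2 CPM in cont., at 45.0, 52.0 and 35.7 in Atg7-KO and at 50.5, 57.1 and 56.8 in S351A. All Atg7-KO values lay under the lowest cont. value, the highest of them only just, while S351A overlapped cont. The log2 fold change in Atg7-KO was -0.40 (95% interval -0.83 to 0.02, adjusted p = 0.125), and that in S351A was -0.10 (-0.55 to 0.35, adjusted p = 0.764). Cyp8b1, the sterol 12-alpha-hydroxylase, was at 131, 175 and 196 CPM in cont., at 57.3, 61.4 and 70.9 in Atg7-KO and at 39.1, 80.7 and 101 in S351A, so both groups lay entirely below cont. It fell by 1.41 ± 0.29 (SE) on the log2 scale in Atg7-KO (adjusted p = 0.0024) and fell by 1.19 ± 0.30 in S351A (adjusted p = 0.011). The S351A call of Cyp8b1 ended when the cont. and S351A libraries were fitted alone (-1.11), under total library size (-0.69, adjusted p = 0.0866) and with library sizes taken without the 20 genes with most counts (-0.79, adjusted p = 0.0546).

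Within a library, the ratio of Cyp8b1 to Cyp7a1 counts does not depend on how libraries are scaled. It was 2.34, 2.57 and 3.75 in cont., then 1.27, 1.18 and 1.99 in Atg7-KO and 0.773, 1.41 and 1.78 in S351A. Each of the 6 livers with Alb-Cre thus had a lower ratio than any cont. liver. This ratio was one of 4 chosen after the values were seen and compared in 12 exact permutation tests, 2-sided, for which 3 against 3 cannot give a p under 0.1. Both comparisons with cont. gave that smallest p (exact p = 0.1, Benjamini-Hochberg adjusted 0.171), and S351A against Atg7-KO gave an exact p of 0.7.

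Both enzymes of the acidic route were lower. Cyp27a1, the mitochondrial sterol 27-hydroxylase, was at 703, 952 and 645 CPM in cont., at 287, 358 and 301 in Atg7-KO and at 225, 447 and 559 in S351A. No library with Alb-Cre reached the lowest cont. value, but S351A spread far more than Atg7-KO. It fell by 1.28 ± 0.31 in Atg7-KO (adjusted p = 0.0063) and fell by 0.90 ± 0.31 in S351A (adjusted p = 0.046). The call in S351A ended in 12 of 20 alternatives, among them the fit without S351A replicate 1 (-0.62, adjusted p = 0.142) and without cont. replicate 2 (-0.73, adjusted p = 0.118), and its adjusted p over the 20 ran from 0.0068 to 0.324. The call in Atg7-KO ended, of the 20 alternatives, under total library size only (-0.76, adjusted p = 0.0685).

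Cyp7b1, the oxysterol 7-alpha-hydroxylase, had the widest fold of the members. Its level was 145, 19.7 and 239 CPM in cont., then 8.35, 8.61 and 5.49 in Atg7-KO and 13.8, 8.69 and 13.6 in S351A. It fell by 4.15 ± 0.68 in Atg7-KO (17.7-fold, adjusted p = 0.00054) and fell by 3.49 ± 0.73 in S351A (adjusted p = 0.0043). The low cont. library is the only female of its group, and Cyp7b1 is known to be higher in male than in female mouse liver. Among males, the cont. mean was 23.0 times the single Atg7-KO value and 13.9 times the single S351A value. Among females, the single cont. value was 2.80 times the Atg7-KO mean and 1.77 times the S351A mean. Female ratios to Atg7-KO were wider for Abcb11 (4.27), Slc27a5 (3.71), Slc10a1 (3.24) and Cyp27a1 (2.89). Against S351A, the female ratio of Cyp7b1 was the smallest of the called members. With sex as a covariate the log2 fold changes of Cyp7b1 were -3.34 (adjusted p = 0.0012) and -2.70 (adjusted p = 0.0091). Whether the effect itself differed between sexes was not tested. Without cont. replicate 3 the log2 fold changes of Cyp7b1 were -3.37 (adjusted p = 0.0014) and -2.73 (adjusted p = 0.014). Under limma-voom the S351A call of Cyp7b1 ended (-2.80, adjusted p = 0.0855), and in S351A the level rests on 7 to 12 counts per library.

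**Figure D2:**
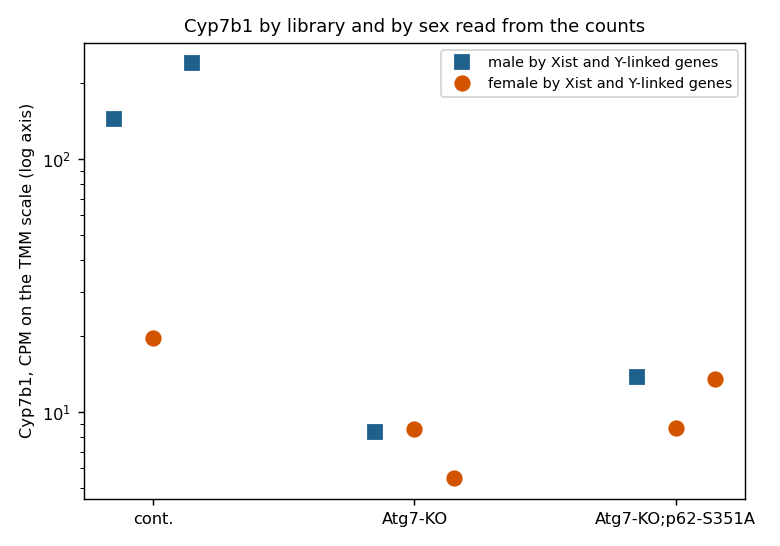
Cyp7b1 level in each liver on a log axis, with squares for livers read as male and circles for those read as female from Xist and Y-linked genes. The male cont. livers stand at 145 and 239 CPM and the female one at 19.7, and all 6 livers with Alb-Cre stand between 5.49 and 13.8.

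Acox2, the peroxisomal oxidase that opens the shortening of the side chain, was at 90.9, 146 and 146 CPM in cont., at 99.8, 130 and 127 in Atg7-KO and at 72.4, 120 and 115 in S351A. The 3 groups overlapped. Its log2 fold change was -0.11 in Atg7-KO (95% interval -0.66 to 0.44, adjusted p = 0.760) and -0.33 in S351A (-0.89 to 0.24, adjusted p = 0.376). The interval in Atg7-KO therefore still allows a fall of 0.66.

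The enzymes of conjugation were both lower. Slc27a5, the bile acyl-CoA synthetase, was at 437, 527 and 581 CPM in cont., at 134, 138 and 146 in Atg7-KO and at 148, 178 and 227 in S351A. It fell by 1.89 ± 0.23 in Atg7-KO (adjusted p = 6.6e-05) and fell by 1.48 ± 0.23 in S351A (adjusted p = 0.00064). Baat, the transferase that attaches taurine or glycine, was at 293, 365 and 491 CPM in cont., at 117, 179 and 152 in Atg7-KO and at 79.3, 123 and 195 in S351A. It fell by 1.36 ± 0.32 in Atg7-KO (adjusted p = 0.0051) and fell by 1.54 ± 0.33 in S351A (adjusted p = 0.0046). For both genes every liver with Alb-Cre lay below every cont. liver. The count ratio of Baat to Slc27a5 was 0.671, 0.693 and 0.845 in cont., then 0.872, 1.299 and 1.04 in Atg7-KO and 0.535, 0.692 and 0.859 in S351A. Atg7-KO lay above both other groups (exact permutation p = 0.1 for each), while S351A overlapped cont. (exact p = 0.8). The ratio of Acox2 to Slc27a5 separated all 3 groups, at 0.208, 0.277 and 0.252 in cont., then 0.743, 0.938 and 0.874 in Atg7-KO and 0.488, 0.678 and 0.505 in S351A (exact permutation p = 0.1 for each pair, adjusted 0.171).

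Among transporters, Slc10a1 was at 120, 195 and 340 CPM in cont., at 45.0, 53.5 and 66.8 in Atg7-KO and at 51.7, 63.3 and 92.6 in S351A. Its highest value with Alb-Cre was below its lowest cont. value, although the cont. livers themselves ranged widely. It fell by 2.00 ± 0.35 in Atg7-KO (adjusted p = 0.00088) and fell by 1.67 ± 0.36 in S351A (adjusted p = 0.0050). Abcb11 was at 1233, 1129 and 1330 CPM in cont., at 271, 276 and 252 in Atg7-KO and at 319, 386 and 523 in S351A. The groups of this gene did not overlap at all, with S351A between the others. It fell by 2.21 ± 0.24 in Atg7-KO (4.62-fold, adjusted p = 3.6e-05) and fell by 1.59 ± 0.24 in S351A (3.00-fold, adjusted p = 0.00058). The count ratio of Slc10a1 to Abcb11 averaged 0.175 ± 0.079 in cont., against 0.208 ± 0.051 in Atg7-KO and 0.168 ± 0.0081 in S351A (± SD over 3 livers), with exact permutation p of 0.2 to 0.9.

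Slc51b, the beta subunit of the exporter OST that returns bile acids to blood, had 1, 0 and 34 counts in cont., then 3, 5 and 4 in Atg7-KO and 1, 1 and 0 in S351A. Only cont. replicate 3, the deepest library, and Atg7-KO replicates 2 and 3 had more than 3 counts. The count of 0 in cont. replicate 2 allows up to 1.06 CPM and that in S351A replicate 3 up to 3.70 CPM, by counting error only. No fold is given. The alpha subunit, Slc51a, had 0 counts in all cont. and Atg7-KO libraries and at most 2 in an S351A library.

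**Figure D3:**
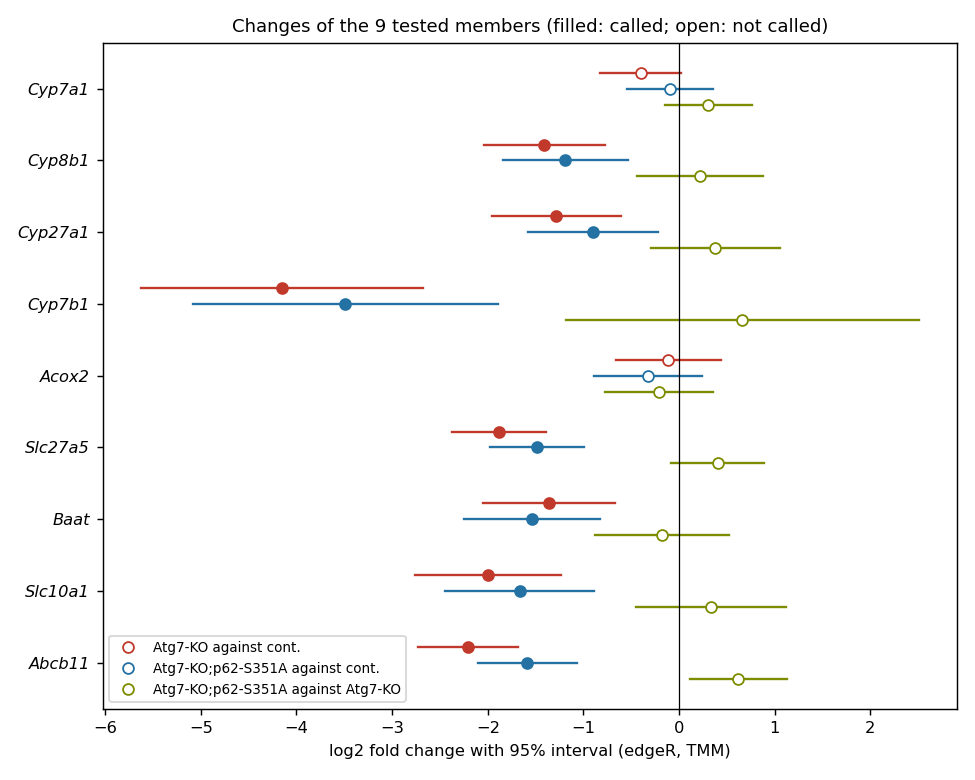
Log2 fold change of the 9 tested members (horizontal axis, edgeR on the TMM scale) with its 95% interval, for the comparisons of Atg7-KO and S351A with cont. and of S351A with Atg7-KO. Filled points were called and open points were not. The 7 called members lie between -0.90 and -4.15 against cont., and no point of S351A against Atg7-KO is filled.

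No member was called between S351A and Atg7-KO, the comparison that asks what p62S351A adds to the loss of Atg7. edgeR called 1 of the 11199 genes lower, 0.00893% of them, and none higher. One member, Abcb11, had an unadjusted p under 0.05, beside 6.60% of all genes, and the count of called members was also 0 with DESeq2 and with limma-voom. Abcb11 differed by 0.62 on the log2 scale (95% interval 0.11 to 1.13, adjusted p = 0.696). Every S351A value exceeded every Atg7-KO value for Abcb11, Slc27a5 and Cyp7b1, as it did for 7.67% of all genes. The log2 differences of the latter were 0.40 (-0.08 to 0.89, adjusted p = 0.838) for Slc27a5 and 0.66 (-1.19 to 2.50, adjusted p = 0.924) for Cyp7b1. For Cyp8b1 the difference was 0.22 (-0.44 to 0.88), for Cyp27a1 0.38 (-0.29 to 1.05), for Slc10a1 0.33 (-0.45 to 1.12) and for Cyp7a1 0.30 (-0.15 to 0.76). Baat was at -0.18 (-0.88 to 0.52) and Acox2 at -0.21 (-0.78 to 0.35). The interval of each tested member includes a difference of 1.5-fold in at least 1 direction, so the groups are not shown to be alike for any of them.

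Within each group the members tended to be lowest or highest in the same livers. In S351A, replicate 1, read as male, was the lowest of the 3 for 8 of the 9 tested members, while 32.1% of all tested genes were lowest there, and Cyp7b1 was the exception. Replicate 3 was the highest for 6 of 9, beside 34.6% of all genes. In Atg7-KO, replicate 1, the only one read as male, was the lowest for 6 of 9, beside 34.0% of all genes. Replicate 2, read as female, was the highest for 6 of 9, beside 32.3%. In cont., replicate 1, read as male, was the lowest for 5 of 9, beside 37.3% of all genes. Replicate 3, also read as male, was the highest for 7 of 9, beside 36.2%. The part of sex in these orders was not tested. Members of 1 liver are not independent of each other, and these counts are descriptions.

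Per length, Cyp27a1 was the most abundant member in each group. In RPKM (CPM per kilobase of merged exons), the cont. order was Cyp27a1 at 353 ± 74.98, Abcb11 at 239 ± 19.5, Slc27a5 at 211 ± 29.9, Baat at 197 ± 51.6, Slc10a1 at 99.3 ± 50.8, Cyp8b1 at 85.7 ± 16.9, Cyp7b1 at 62.2 ± 50.9, Acox2 at 34.5 ± 8.64, Cyp7a1 at 14.1 ± 1.97 and Slc51b at 1.73 ± 2.27 (SD, n = 3). Between Abcb11 and Acox2, each neighbour in this order overlapped the next within 1 SD. In Atg7-KO, Cyp27a1 (145 ± 17.3) was followed by Baat (77.0 ± 16.1), Slc27a5 (57.2 ± 2.33) and Abcb11 (51.8 ± 2.48), and in S351A Cyp27a1 (189 ± 78.2) was followed by Abcb11 (79.6 ± 20.2), Slc27a5 (75.6 ± 16.3) and Baat (68.2 ± 30.1). Cyp7b1 went from 62.2 to 3.46 ± 0.80 RPKM in Atg7-KO and 5.55 ± 1.33 in S351A, which placed it under Cyp7a1 (10.6 ± 1.97 and 13.1 ± 0.89).

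How libraries are scaled moved all members alike. Under total library size in place of TMM, the median gene rose by 0.55 in Atg7-KO and by 0.50 in S351A against cont. Among called genes, the share called higher then went from 52.3% to 84.4% and from 54.5% to 87.4%. Cyp7a1 turned from -0.40 to 0.13 in Atg7-KO and from -0.10 to 0.39 in S351A, and Acox2 from -0.11 to 0.43 and from -0.33 to 0.17, none of them called. The other 7 tested members kept a negative value under this scaling. Relative to the median of all genes (0.52 and 0.47 under it), every tested member was negative under both scalings.

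**Figure D4:**
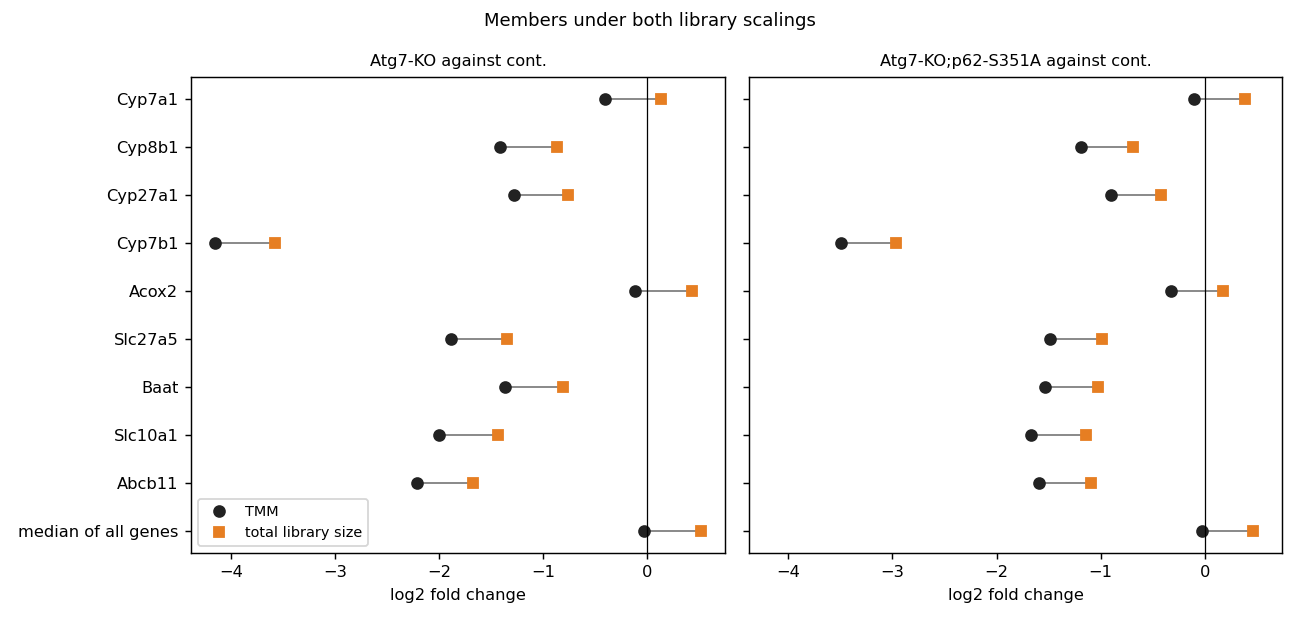
Log2 fold change against cont. of the 9 tested members and of the median gene, with libraries scaled by TMM (circles) or by total library size (squares), for Atg7-KO on the left and S351A on the right. All shift to the right by a like amount, which takes Cyp7a1 and Acox2 across 0 and leaves the other 7 members below it.

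The wider pathway was read from a list of 48 other genes, of which 45 could be tested. Of the 48, 15 are genes that control the pathway, a role no member has, and the rest share a role with a member. In Atg7-KO, 21 were lower than in cont. and 3 higher (Ephx1, Abcb1a and Abcc4), beside 18.1% of all genes lower and 19.9% higher, with a median of -0.81 on the log2 scale against -0.03 for all genes. In S351A, 19 were lower and 3 higher (Ugt1a1, Abcb1a and Abcc4), beside 13.0% lower and 15.6% higher, with a median of -0.58. Under total library size, 6 of the 45 were called higher in Atg7-KO and 5 in S351A, where 4312 and 3541 of all genes were. Between S351A and Atg7-KO, 0 of 45 were called and 8 had an unadjusted p under 0.05, beside 6.60% of all genes.

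Of 7 further genes of peroxisomal side chain shortening, 7 were lower in Atg7-KO and 6 in S351A, Acot8 being the one not called there, beside 18.1% and 13.0% of all genes. Acaa1b, a thiolase, fell by 2.17 ± 0.24 in Atg7-KO (adjusted p = 4.2e-05) and fell by 1.54 ± 0.24 in S351A (adjusted p = 0.00069). Abcd3, a transporter of the peroxisomal membrane, fell by 2.20 ± 0.26 and fell by 1.85 ± 0.27 (adjusted p = 6.6e-05 and 0.00046). Acox2 was therefore the only one of 8 genes of this role that was not called in Atg7-KO.

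In ring modification, Hsd3b7, the C27 3-beta-hydroxysteroid dehydrogenase that follows Cyp7a1, was at 766, 750 and 1085 CPM in cont., at 145, 202 and 156 in Atg7-KO and at 152, 179 and 368 in S351A. It fell by 2.37 ± 0.34 and fell by 1.90 ± 0.33 (adjusted p = 0.00021 and 0.0015). Akr1c6 fell by 1.68 ± 0.34 and fell by 1.70 ± 0.34 (adjusted p = 0.0020 and 0.0034). Akr1d1, the 5-beta-reductase, and Cyp39a1 were not called. Cyp3a11, a bile acid hydroxylase, was at 799, 1745 and 5213 CPM in cont., at 300, 264 and 281 in Atg7-KO and at 400, 339 and 549 in S351A. It fell by 3.20 ± 0.55 and fell by 2.59 ± 0.53 (adjusted p = 0.00073 and 0.0038), and without cont. replicate 3 by less (-2.18 and -1.58, adjusted p = 0.00036 and 0.0045). Cyp2c70, which makes muricholic acids, was at 0.09 and -0.12 and not called.

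For conjugation, Sult2a8, a bile acid sulfotransferase, was at 1071, 636 and 1268 CPM in cont., at 19.3, 10.1 and 5.03 in Atg7-KO and at 68.9, 50.9 and 146 in S351A. The 3 groups did not overlap. It fell by 6.38 ± 0.56 in Atg7-KO (83.5-fold, adjusted p = 7.7e-06) and fell by 3.49 ± 0.49 in S351A (adjusted p = 0.00039). The Atg7-KO value was -7.01 without Atg7-KO replicate 1 (adjusted p = 4.2e-05). Between S351A and Atg7-KO it differed by 2.90 ± 0.50 (adjusted p = 0.177) and was not called. This difference of Sult2a8 became 3.52 when Atg7-KO replicate 1 was left out and 2.33 when S351A replicate 3 was. Its adjusted p was 1.3e-06 with DESeq2, 0.275 with limma-voom and 0.0456 in the fit of these 6 libraries alone, and ran from 1.1e-07 to 0.99961 over all alternatives, the highest without Atg7-KO replicate 2. Acnat1, a taurine transferase of acyl groups, fell by 1.22 ± 0.29 and fell by 1.04 ± 0.30 (adjusted p = 0.0056 and 0.020). The S351A value of Acnat1 passed the threshold neither without S351A replicate 1 (-0.81, adjusted p = 0.0813) nor without replicate 2 (-1.09, adjusted p = 0.0604). It also missed it in the 6 libraries alone (-0.96, adjusted p = 0.0697), under total library size (-0.54, adjusted p = 0.158) and once the 20 most counted genes were left out of the library sizes (-0.65, adjusted p = 0.101), and the Atg7-KO call of Acnat1 ended under total library size (-0.68, adjusted p = 0.0644).

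Of the other uptake carriers, Slco1b2 fell by 2.11 ± 0.22 in Atg7-KO and fell by 1.55 ± 0.21 in S351A (adjusted p = 2.4e-05 and 0.00036), and Slco2b1 fell by 1.78 ± 0.24 and fell by 1.22 ± 0.25 (adjusted p = 0.00016 and 0.0033). Slco1a1, which averaged 266 ± 209 CPM in cont., came to 3.99 ± 3.38 in Atg7-KO and to 15.9 ± 19.1 in S351A (± SD over 3 livers) and was called lower in both, although its highest S351A value (37.9) exceeded its lowest cont. value (26.8). That lowest value belongs to replicate 2, the only cont. liver read as female, and the highest S351A value to replicate 1, the only S351A liver read as male, and the part of sex in this gene was not tested. The exporters Abcc4 and Abcb1a went the other way. Abcc4 (MRP4), which sends bile acids back to blood, was at 7.63, 5.28 and 2.60 CPM in cont., at 195, 229 and 188 in Atg7-KO and at 122, 83.2 and 97.5 in S351A. It rose by 5.52 ± 0.36 in Atg7-KO (45.7-fold, adjusted p = 1.2e-06) and by 4.50 ± 0.35 in S351A (adjusted p = 9.5e-06), and differed by -1.01 ± 0.28 between S351A and Atg7-KO (adjusted p = 0.468). With no filter on low counts this difference of Abcc4 was called (-1.07, adjusted p = 0.036). Abcb1a (MDR1A) rose by 3.17 ± 0.50 and by 3.13 ± 0.55 (adjusted p = 0.00045 and 0.0016), with 0 to 27 counts in the cont. libraries. Abcc3, at -0.06 and -0.33, and Abcg5, at -0.63 and -0.83, were not called. Abcg5 was called with sex as a covariate in Atg7-KO (-0.97, adjusted p = 0.0063) and in S351A (-1.22, adjusted p = 0.0031). It was also called in S351A with the replicate number as a block (-0.92, adjusted p = 0.018), with no filter (-0.93, adjusted p = 0.015) and without S351A replicate 3 (-1.17, adjusted p = 0.045).

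**Figure D5:**
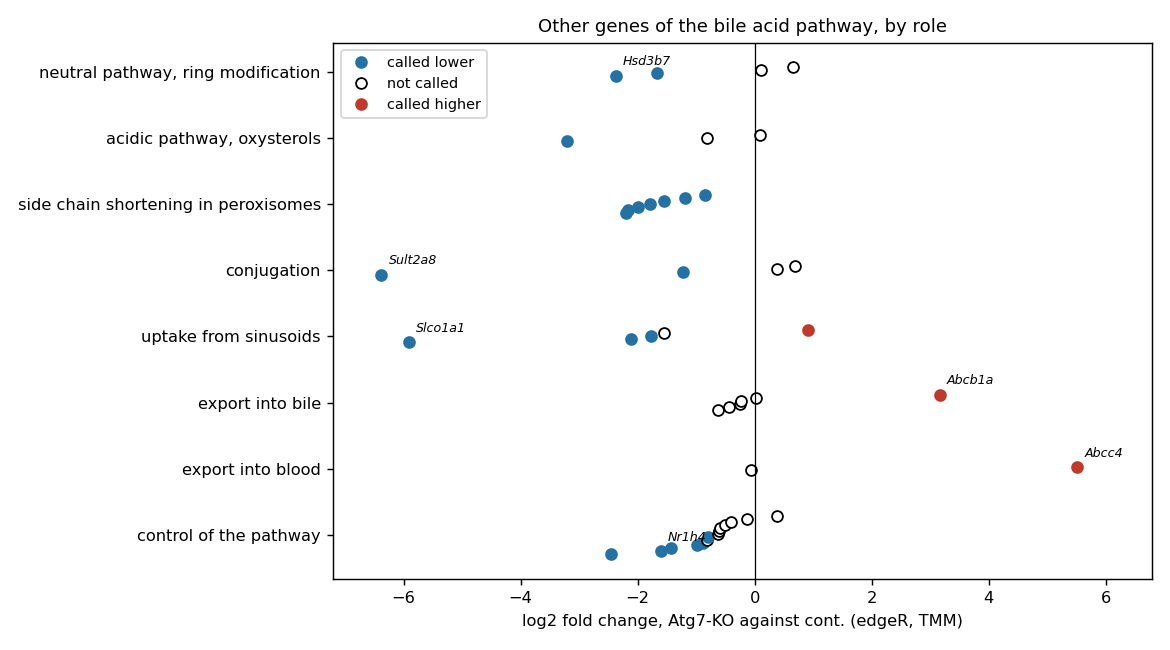
Log2 fold change of the 45 other tested pathway genes in Atg7-KO against cont. (horizontal axis), 1 point per gene, grouped by role on the vertical axis. Blue points were called lower, red points higher and open points not called. All 7 peroxisomal genes lie left of 0, and Abcc4 and Abcb1a lie farthest to the right.

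The counts above include 14 tested genes that control the pathway, of which 6 were lower in Atg7-KO, 5 in S351A and 0 higher in either, where 18.1% and 13.0% of all genes were called lower and 19.9% and 15.6% higher. Nr1h4 (FXR) was at 333, 320 and 238 CPM in cont., at 94.9, 103 and 93.8 in Atg7-KO and at 87.3, 79.5 and 170 in S351A. It fell by 1.61 ± 0.28 and fell by 1.40 ± 0.29 (adjusted p = 0.00085 and 0.0036). Nr0b2 (SHP) was at 76.9, 104 and 136 CPM in cont., at 24.1, 42.4 and 53.1 in Atg7-KO and at 11.5, 39.7 and 46.9 in S351A, and fell by 1.44 ± 0.38 and fell by 1.71 ± 0.42 (adjusted p = 0.011 and 0.0096). The Atg7-KO call of Nr0b2 ended without Atg7-KO replicate 1 (-1.16, adjusted p = 0.0601) and under total library size (-0.89, adjusted p = 0.0660). Nr1i3 (CAR) fell by 2.45 ± 0.37 and fell by 1.46 ± 0.37 (adjusted p = 0.00035 and 0.011), the latter not past the threshold without S351A replicate 1 (-1.24, adjusted p = 0.0546) or under total library size (-1.00, adjusted p = 0.0597). Hnf4a, a master factor of hepatocytes, was at 0.38 in Atg7-KO (95% interval -0.16 to 0.92, adjusted p = 0.251).

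Marker levels of several liver cell types moved with these groups. Of 7 hepatocyte markers, 5 were lower in Atg7-KO and 5 in S351A, beside 18.1% and 13.0% of all genes, with median log2 fold changes of -1.17 and -1.01, and Apob and Trf were not called. Their summed level ran from 52467 to 116526 CPM in cont., from 40847 to 46932 in Atg7-KO and from 39078 to 50757 in S351A. All 6 testable markers of cholangiocytes were higher in both, beside 19.9% and 15.6% of all genes, and the sum of the 7 listed ran from 47.2 to 83.3 CPM in cont., from 828 to 1215 in Atg7-KO and from 725 to 1202 in S351A. Spp1 and Sox9 made up most of this sum, with Atg7-KO means of 733 and 230 CPM. Each other cholangiocyte marker averaged 4.01 to 12.6 CPM in Atg7-KO. Of 5 stellate and fibroblast markers 4 were higher in each, with sums of 50.8 to 104, 448 to 576 and 310 to 450 CPM, and of 5 macrophage markers 3 were higher in each, with sums of 170 to 238, 216 to 282 and 200 to 226 CPM. Of 4 endothelial markers, 1 was higher and 1 lower in Atg7-KO and 1 was higher in S351A, shares near those of all genes, with sums of 71.8 to 129, 113 to 126 and 93.1 to 109 CPM. No marker was at 0 in every library of a group. Their part in the lower level of the members was not tested.

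The genes whose log2 CPM followed Cyp7a1 most closely over the 9 livers, of 9659 compared, were Zfp866 (Pearson r = 0.935), Acad10 (0.934) and Zfp444 (0.926). They were picked as the highest of 9659 values from only 9 points, and no chance level was computed. In the S351A libraries Zfp866 had only 10 to 11 counts. The points share library depth and scaling, and these values are a description.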

How the data were processed

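Poly(A) RNA libraries of 9 livers had been prepared with the NEBNext Ultra II kit. The authors trimmed reads with Trim Galore, mapped them to mm10 with STAR and estimated expected counts per gene with RSEM, and the deposited table holds these expected counts without scaling between libraries. Versions, annotation and strand setting are not given in the sources used here. Expected counts were rounded to whole numbers (4.40% to 7.75% of values per library were not whole). Groups and replicate numbers came from the titles. Of 24411 genes, 11199 passed filterByExpr (minimum count 10, minimum total 15). All 9 libraries were fitted together by edgeR 4.0.16 quasi-likelihood tests in R 4.3.3 with TMM factors, without a block, and p-values were adjusted over all tested genes. Calls needed an adjusted p under 0.05 and a fold above 1.5. The script was tested on simulated data. Alternatives included DESeq2 1.42.0 and limma 3.58.1 (voom), other scalings and filters, sex, a replicate block and leaving out each library. Replicate libraries of a group differed by 2.29 to 117 times the counting error, so none was a copy of another. In S351A against cont., deviations of same-numbered libraries correlated at 0.235, 0.175 and 0.160, which met the rule used here for pairing (each over 0.1), although nothing in the labels links them. In the other comparisons they did not. By Xist and Y-linked genes, number 1 was male and number 2 female in each group, while number 3 was male in cont. only. The part of shared sex in these correlations was not tested. p-values measure the spread between these mice.

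The members and gene lists were chosen with earlier results of these data known. Besides the members, the text names the 2 genes with the smallest p per role among those averaging 10 CPM or more, Atg7, Nr1h4, Nr0b2 and the 3 genes most correlated with Cyp7a1. Genes outside this rule (Akr1d1, Cyp39a1, Slco1a1, Ephx1, Ugt1a1, Acot8, Hnf4a, Slc51a and the markers) were named after their values were seen. Each SE of a log2 fold change was derived from that change and the F value of its edgeR quasi-likelihood test. Each 95% interval lies symmetrically about the change by a t quantile of that SE. Both are approximations.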

Additional observations from a re-analysis of the deposited data

How the results depend on the processing

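Of the 27 comparisons of tested members, 506 of 537 recomputed values kept direction and side of the threshold. Of the others, 17 lost a call and 14 changed direction. The 537 include S351A against Atg7-KO, where no member was called, and fits that left out a library of neither compared group. The share is therefore not a measure of how firm the calls are. The cause of the changes was not tested, apart from fewer genes tested or fewer counts where the setting itself imposes them. Under total library size, Cyp7a1 stood at 0.13 in Atg7-KO and 0.39 in S351A, Acox2 at 0.43 and 0.17, Abcc3 at 0.47 and 0.16, and Cyp2c70 in S351A at 0.37, and the wider list had 6 and 5 of 45 genes called higher, where 4312 and 3541 of all 11199 genes were. With library sizes taken without the 20 genes with most counts, these were 0.027 and 0.29 for Cyp7a1, 0.32 and 0.067 for Acox2, 0.37 and 0.058 for Abcc3 and 0.27 for Cyp2c70, with 6 of the wider list higher in Atg7-KO. The lower level of Atg7 was called neither under total library size (-0.20 in Atg7-KO and -0.59 in S351A) nor, in Atg7-KO, with library sizes taken without those 20 genes (-0.31, adjusted p = 0.208). With at least 10 counts in every library, Abcc3 was at 0.026 in Atg7-KO and Cyp7b1 was not tested. After thinning to the smallest library, Acox2 was at 0.14 and Abcc3 at 0.031 in Atg7-KO, and Cyp7a1 was at 0.068 in S351A.

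All genes called in Atg7-KO (4253 in the edgeR fit described) were 2504 with at least 10 counts in every library, 2614 after thinning and 2492 at adjusted p under 0.01 and fold above 2. In S351A (3208) these were 1941, 2086 and 1639, with 1849 in the 6 libraries alone and 2098 (without S351A replicate 1) to 3572 on leaving out 1 library. Between S351A and Atg7-KO (1) they were 98 without a filter, 47 with DESeq2, 10 in the 6 libraries alone, 2 after thinning, 0 with limma-voom, 0 with at least 10 counts, 0 at the stricter threshold and 0 to 3 on leaving out 1 library. The wider list then had 1 gene higher and 1 lower without a filter, 1 higher with DESeq2 and 1 higher in the 6 libraries alone.

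On leaving out 1 library, Acox2 in Atg7-KO ran from -0.32 to 0.0016, Cyp2c70 from -0.089 to 0.22 and Abcc3 from -0.15 to 0.044. In S351A, Cyp7a1 ran from -0.20 to 0.0089 and Cyp2c70 from -0.30 to 0.11. Between S351A and Atg7-KO, Cyp8b1 ran from -0.085 to 0.53, Baat from -0.57 to 0.087 and the log2 ratio of Cyp8b1 to Cyp7a1 from -0.46 to 0.14. The log2 ratio of Slc10a1 to Abcb11 ran from -0.042 to 0.65 in Atg7-KO and from -0.33 to 0.37 in S351A, and that of Baat to Slc27a5 from -0.27 to 0.075 in S351A. The replicate block left the calls of all members as they were (Cyp27a1 in S351A at -0.95, adjusted p = 0.022), gave 4313, 3406 and 1 calls over all genes in the 3 comparisons, and added Abcg5 in Atg7-KO (-0.68, adjusted p = 0.048) and S351A. Same-numbered libraries were each other's best match for all numbers in S351A against cont. and for number 1 only in the other comparisons. Number 1 was read as male in each group. The shallow S351A libraries limit all statements on Cyp7b1 and Slc51b in S351A. In the Atg7-KO libraries Cyp7b1 had 12 to 36 counts and Slc51b only 3 to 5.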
